A study of Mus musculus with 11 samples.

Results

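The genes described here are 36 genes of the lysosome and its transcriptional control, chosen by name from the 53947 gene rows of the table. They comprise 3 transcription factors of the TFE family, 4 lysosomal membrane proteins, 7 proteases, 10 glycosidases and sulphatases, 3 lipid and thioester hydrolases, 2 soluble precursor proteins (Psap and Grn), the autophagy receptor Sqstm1 and 6 genes of the proton pump. Each name matched 1 row, and all 36 passed the filter on low counts, with 33 counts in the library where a member was lowest. Messenger RNA had been sequenced from aTC1-6 cells, a line derived from a mouse tumour of glucagon-producing pancreatic alpha cells. The 11 libraries comprised 3 from scramble controls, 4 from METTL3 KD cells and 4 from METTL14 KD cells, where KD stands for knockdown. All cells, controls included, were reverse transfected and were collected 72 h later. The study thus rests on a single cell line. Whether replicates were separate cultures was not stated, so the p-values reflect the spread among these libraries alone, which could be technical. Because these are bulk samples, fewer expressing cells and less RNA per cell cannot be told apart.

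Lysosomes are acid organelles that digest proteins, glycans and lipids. A rotary proton pump, the V-ATPase, acidifies them, and hydrolases made in the endoplasmic reticulum reach them through mannose 6-phosphate receptors and other carriers. TFEB, TFE3 and MITF are related basic helix-loop-helix factors that bind an E-box in the promoters of many lysosomal genes; when nutrients are plentiful, mTORC1 on the lysosome surface keeps TFEB and TFE3 in the cytoplasm. Alpha cells are known to send part of their stored glucagon to lysosomes for breakdown. METTL3 and METTL14 are the catalytic and RNA-binding partners of the complex that deposits N6-methyladenosine (m6A) in messenger RNA.

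Library totals lay between 19576632 and 22406527 counts, and the values below are CPM, counts scaled to a common library total with TMM factors (trimmed mean of M-values). Each targeted transcript was below its scramble range in every library of its own knockdown: Mettl3 was at 5.01 to 5.98 CPM against 14 to 16.02 CPM, and Mettl14 at 13.9 to 15.5 CPM against 23.5 to 26.8 CPM. Mettl14 was also called higher in Mettl3 KD, at 28.1 to 30.5 CPM. One control, scramble replicate 2, held transcripts of other tissues. The summed level of 7 lung epithelium markers was 101 CPM there and at most 4.37 CPM elsewhere, and that of 5 red blood cell markers was 20.6 against at most 2.14 CPM. Of 14 macrophage markers, a cell type rich in lysosomes, the 13 other than Cd14 summed to 31.6 CPM in scramble replicate 2, of which Lyz2 gave 19.4 CPM, and to 3.02 to 5.28 CPM in the other 10 libraries; none of the 14 was at 0 in every library. Cd14 itself was at 55.7 to 60.1 CPM in scramble, and lower in both knockdowns: 24.6 to 27.04 CPM with Mettl3 and 37.4 to 39.7 CPM with Mettl14 knocked down. Cd68, another of these markers, was also called lower in Mettl14 KD. Of 6 fibroblast and endothelium markers the sum was 26.9 CPM in scramble replicate 2 and at most 12.4 CPM elsewhere. The 8 alpha cell markers summed to at least 36845 CPM in each library, and 6 markers of other islet cells to at most 1.25 CPM, with Ppy at 0 in all 11. For 33 of the 36 members the value of scramble replicate 2 lay outside the range of the other scramble libraries, above it for 17 and below it for 16. With so few controls, even a library like the others would lie outside their range for most genes. Scramble replicate 2 did stand apart over the tested genes, however. Its chi-square per degree of freedom, a measure of difference beyond sampling noise, was 14.9 and 13.3 against scramble replicates 1 and 3. Between replicates 1 and 3 it was 2.93. Values without scramble replicate 2 are given where they change the call of a member or the counts of a list. The part of the foreign transcripts in the results was not tested.

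The E-box that TFE factors bind was looked for in the RefSeq promoters of build GRCm38.p6, each running from 250 bases before to 50 bases after a start site. The coordinates come from RefSeq alone, since the build behind the counts was not stated. Of the members, 32 had an entry. The core CACGTG was in a promoter of 13 of these 32 genes (40.6%), against 8.09% of all 27025 genes with an entry and 11.7% of the 10233 that were also tested here. The longer box TCACGTG, read on both strands and always containing the core, was in 11 of 32 (34.4%), against 4.29% of all genes and 7.03% of those tested. The windows below are shown because these genes carry the box and yet differed in how they moved: Lamp1, Ctsd, Ctsa, Atp6v1a and Atp6v0d1 were called higher in at least 1 knockdown, Naglu and Glb1 were called lower in at least 1, and Mcoln1 was called in neither. Capitals mark the longer box, including the base that completes it on the other strand; sequences read 5′ to 3′ on the strand of the gene.
Lamp1 (GRCm38.p6, chr8:13159087-13159163, plus strand): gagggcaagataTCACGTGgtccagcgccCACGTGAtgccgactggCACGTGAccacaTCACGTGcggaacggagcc
Ctsd (GRCm38.p6, chr7:142387907-142388077, minus strand): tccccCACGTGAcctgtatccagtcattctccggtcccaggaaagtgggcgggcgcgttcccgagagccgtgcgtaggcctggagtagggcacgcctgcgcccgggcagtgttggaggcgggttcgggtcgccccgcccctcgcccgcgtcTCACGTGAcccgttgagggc
Ctsa (GRCm38.p6, chr2:164833748-164833796, plus strand): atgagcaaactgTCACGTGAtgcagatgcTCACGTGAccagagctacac
Atp6v1a (GRCm38.p6, chr16:44139372-44139403, minus strand): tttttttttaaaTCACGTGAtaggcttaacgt
Atp6v0d1 (GRCm38.p6, chr8:105566049-105566080, minus strand): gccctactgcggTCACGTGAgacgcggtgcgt
Naglu (GRCm38.p6, chr11:101070008-101070038, plus strand): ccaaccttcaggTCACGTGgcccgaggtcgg
Glb1 (GRCm38.p6, chr9:114401017-114401047, plus strand): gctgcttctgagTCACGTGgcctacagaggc
Mcoln1 (GRCm38.p6, chr8:3500435-3500492, plus strand): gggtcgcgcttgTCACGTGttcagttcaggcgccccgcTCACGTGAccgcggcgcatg
Lamp1 had 4 such boxes, with cores beginning at -61 to -15 bases from the start site, while Naglu had 1 at -73 and Glb1 had 1 at -48. Ctsd had 2, at -245 and -98, and Mcoln1 had 2, at -71 and -45. The other genes with the box were Gaa, Gla and Sgsh. In Mettl3 KD, 3 of the 11 genes with the box were called higher and 1 lower (median log2 fold change 0.08), and 6 and 2 of the 21 without it (median 0.06). In Mettl14 KD the counts were 4 higher and 2 lower with the box (median 0.07), and 8 and 1 without it (median 0.08). Of all genes tested, 15.5% were called higher and 15.8% lower in Mettl3 KD, and 10.1% and 10.8% in Mettl14 KD. A match says only that these letters stand in the window.

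In scramble cells the members spanned a wide range of levels. Per kilobase of transcript, which allows genes to be compared, Psap was highest at 545 ± 46.7 CPM per kb (SD, n = 3), followed by Ctsz at 419.6 ± 42.1, Gaa at 398 ± 13.03, Lamp1 at 373 ± 5.77 and Ctsd at 338 ± 7.11 CPM per kb. In 9 of the 35 pairs of neighbours in this order the means differed by less than the larger SD: Ctsz and Gaa, Lamp2 and Ppt1, Ppt1 and Atp6v1h, Ctsl and Neu1, Ctsa and Ctsb, Asah1 and Mcoln1, Naglu and Fuca1, Fuca1 and Glb1, and Glb1 and Scarb2. Among the transcription factors Tfe3 was at 28.9 ± 0.659 CPM per kb, Tfeb at 5.61 ± 0.286 and Mitf, the lowest of the 36, at 1.005 ± 0.322 CPM per kb. The pump subunits lay between Atp6v1a at 65.1 ± 0.977 and Atp6ap1 at 169.6 ± 2.43 CPM per kb. Low members besides Tfeb and Mitf were the enzymes Lipa (2.14 ± 0.155), Manba (3.27 ± 0.174), Sgsh (4.005 ± 0.337) and Gla (7.59 ± 0.274 CPM per kb).

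**Figure D1:**
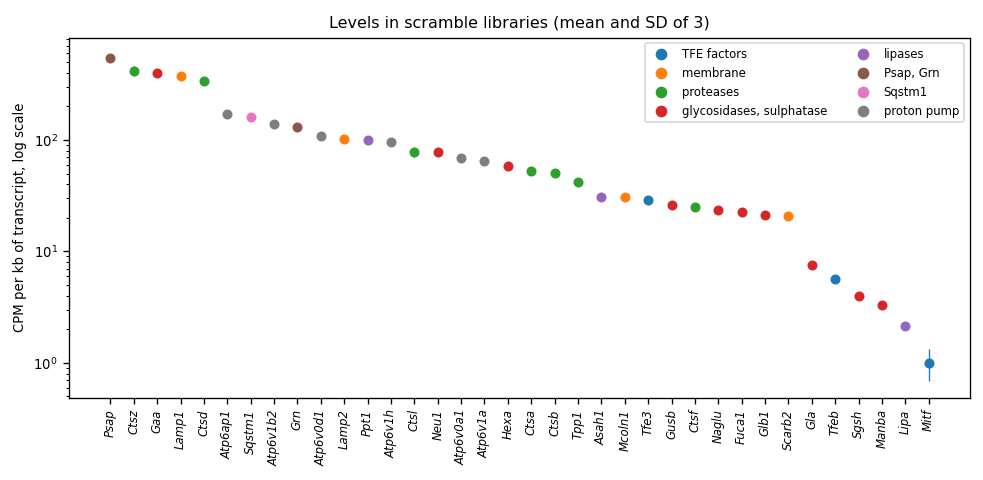
Level of each of the 36 genes in scramble libraries, as CPM per kb of transcript on a log axis, with the mean and SD of 3 libraries and colour by role. Psap, Ctsz, Gaa, Lamp1 and Ctsd form the top of the order, Tfe3 lies well above Tfeb and Mitf, and Mitf is lowest with the widest relative bar.

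The changes in this set were many and small. With Mettl3 knocked down, 9 of the 36 genes rose (25.0%, against 15.5% of all 14133 genes tested) and 5 fell (13.9%, against 15.8%), with a median log2 fold change of 0.06; over all genes tested the median was 0.00. With Mettl14 knocked down, 13 rose (36.1%, against 10.1%) and 3 fell (8.33%, against 10.8%), with a median of 0.07 against 0.00. The largest changes were an increase of 1.23-fold for Manba in Mettl3 KD and a decrease of 1.25-fold for Naglu in Mettl14 KD. Counted in either direction, 31.3% of all genes were called in Mettl3 KD and 20.9% in Mettl14 KD, and 14 members were called in neither. Of the members, 34 had a mean of at least 10 CPM. Among the 9343 tested genes at that level, 39.4% were called in Mettl3 KD (21.7% higher, 17.7% lower), against 41.2% of those 34 members (26.5% higher, 14.7% lower), so the share of members called was near that of genes of like level. In Mettl14 KD 26.7% of such genes were called (14.3% higher, 12.4% lower), against 47.1% of the members (38.2% higher, 8.82% lower). Calls in this text rest on edgeR (quasi-likelihood F test, adjusted p of 0.05), and the knockdowns share their scramble libraries, so their values stand side by side and are not independent. Without scramble replicate 2 the counts were 13 higher and 5 lower in Mettl3 KD and 11 and 2 in Mettl14 KD. Of all genes, 4420 were called in Mettl3 KD and 2956 in Mettl14 KD with every library in the fit. Leaving out any 1 library gave 3705 to 4343 and 2276 to 3091.

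**Figure D2:**
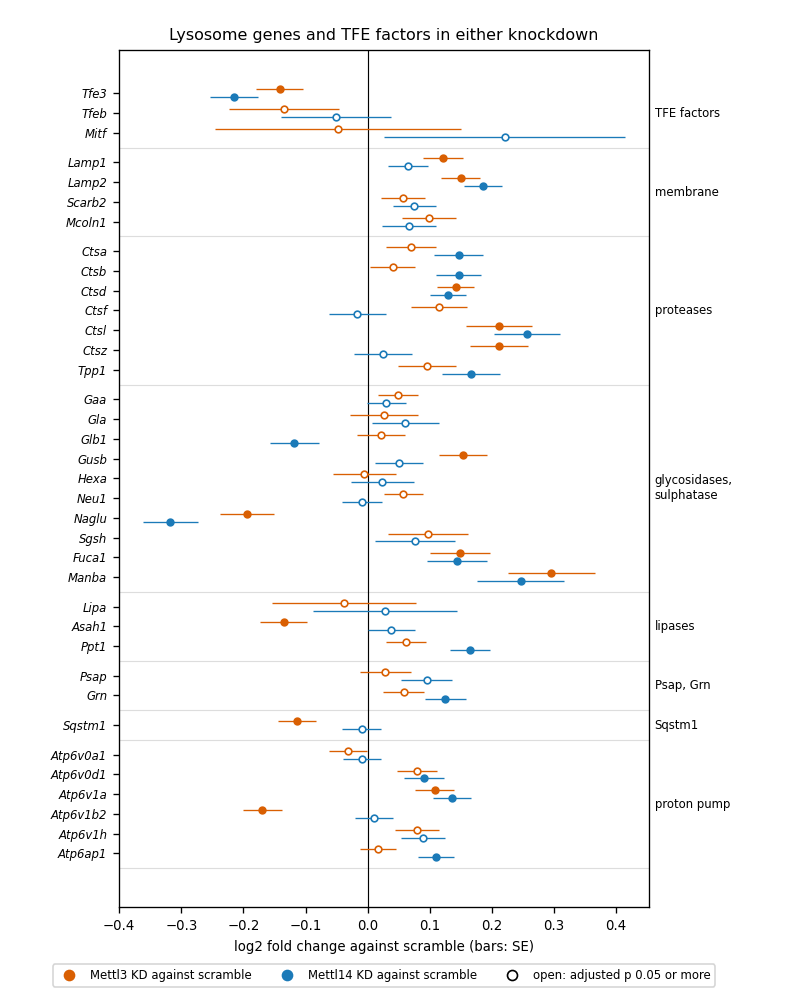
Log2 fold change of each gene in Mettl3 KD (orange) and Mettl14 KD (blue) against scramble, with the SE as bars, ordered by role; filled points passed edgeR's test at an adjusted p of 0.05. All values lie between -0.32 and 0.30, the membrane proteins and most proteases lie right of 0, and Tfe3 and Naglu lie left of 0 in both knockdowns.

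Of the transcription factors only Tfe3, the most abundant of them here, was called, and it was lower in both knockdowns. Its values were 89.3, 93.5 and 91.5 CPM in scramble, 85.5, 77.3, 85.1 and 83.6 CPM in Mettl3 KD and 80.2, 78.9, 78.9 and 76.98 CPM in Mettl14 KD, in the order of the replicate numbers, as in all such lists below. Every knockdown library lay below every scramble library. The mean fell to 90.6% of scramble in Mettl3 KD and to 86.1% in Mettl14 KD, with log2 fold changes of -0.14 ± 0.04 (adjusted p = 0.00687) and -0.22 ± 0.04 (adjusted p = 0.000362) by edgeR. Groups failed to overlap in the lower direction for 17.9% of all genes in Mettl3 KD and 14.6% in Mettl14 KD. Tfeb had 12.3, 13.7 and 12.9 CPM in scramble, 13.1, 10.2, 12.1 and 11.8 CPM in Mettl3 KD and 12.5, 10.7, 13.96 and 12.8 CPM in Mettl14 KD. These ranges overlapped, and neither fold change passed edgeR's test, at -0.13 ± 0.09 (adjusted p = 0.270) and -0.05 ± 0.09 (adjusted p = 0.729). Their 95% intervals on the log2 scale were -0.34 to 0.07 and -0.26 to 0.15, wide enough to hold a change of the size seen for Tfe3. Mitf, a factor better known from pigment cells, had 2.08, 2.85 and 1.48 CPM in scramble, 1.75, 2.46, 2.19 and 1.83 CPM in Mettl3 KD and 2.17, 2.54, 2.88 and 2.31 CPM in Mettl14 KD. The groups overlapped, and the 95% intervals of -0.51 to 0.41 and -0.23 to 0.67 on the log2 scale were the widest of the 3 factors. The fourth gene of the family, Tfec, had at most 0.0452 CPM in any library and was not tested.

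Lamp2 rose in both knockdowns and Lamp1 in Mettl3 KD, while none of the 4 lysosomal membrane proteins among the members fell. Over all genes, 15.5% were called higher in Mettl3 KD and 10.1% in Mettl14 KD. LAMP1 and LAMP2 are the heavily glycosylated proteins that line the inner face of the lysosome membrane. Lamp2 had 221, 222 and 219.8 CPM in scramble, 241, 247, 252 and 240.3 CPM in Mettl3 KD and 257, 249, 244 and 254 CPM in Mettl14 KD. The scramble values lay close together and all 8 knockdown libraries were above them, with log2 fold changes of 0.15 ± 0.03 (adjusted p = 0.000888) and 0.19 ± 0.03 (adjusted p = 0.000202) by edgeR. Lamp1 had 816, 840.1 and 836 CPM in scramble, 929, 905, 914 and 866 CPM in Mettl3 KD and 896, 852, 878 and 849.5 CPM in Mettl14 KD. Each knockdown library was above the scramble range, but only Mettl3 KD passed edgeR's test, at 0.12 ± 0.03 (adjusted p = 0.00651) against 0.06 ± 0.03 (adjusted p = 0.164) in Mettl14 KD. Groups failed to overlap in the higher direction for 17.5% of all genes in Mettl3 KD and 14.4% in Mettl14 KD. Scarb2, a membrane protein that also serves as a sorting receptor, had 99.3, 93.7 and 97.5 CPM in scramble, 98.4, 101, 99.2 and 104 CPM in Mettl3 KD and 105, 99.03, 101 and 104 CPM in Mettl14 KD. Its groups overlapped, and its fold changes of 0.06 ± 0.03 and 0.08 ± 0.03 did not pass. Mcoln1, the calcium-releasing channel of the lysosome, had 62.8, 67.3 and 60.4 CPM in scramble, 71.9, 67.5, 65.1 and 67.3 CPM in Mettl3 KD and 66.7, 68.7, 63.6 and 66.8 CPM in Mettl14 KD. Its fold changes of 0.10 ± 0.04 and 0.07 ± 0.04 did not pass, although without scramble replicate 2, its highest scramble library, Mettl3 KD was called higher at 0.14.

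Among the 7 proteases, 3 rose in Mettl3 KD (42.9%, against 15.5% of all genes). In Mettl14 KD 5 rose (71.4%, against 10.1%), and none fell in either. Cathepsin D, the main aspartic protease, and cathepsin L, a cysteine protease, rose in both. Ctsd had 676, 676 and 701 CPM in scramble, 771, 752, 752 and 744 CPM in Mettl3 KD and 752, 753, 736 and 751 CPM in Mettl14 KD. Every knockdown library exceeded the scramble range, with 0.14 ± 0.03 (adjusted p = 0.000848) and 0.13 ± 0.03 (adjusted p = 0.00322) by edgeR. Ctsl had 316, 286 and 351 CPM in scramble, 376, 348, 379.6 and 369.9 CPM in Mettl3 KD and 390.3, 377, 373 and 380.4 CPM in Mettl14 KD. Mettl14 KD lay wholly above scramble, and 1 Mettl3 KD library fell below scramble replicate 3; edgeR gave 0.21 ± 0.05 (adjusted p = 0.00682) and 0.26 ± 0.05 (adjusted p = 0.00315). Cathepsin B, another cysteine protease, rose in Mettl14 KD. Ctsb had 247, 231 and 238 CPM in scramble, 258, 232, 246 and 245 CPM in Mettl3 KD and 265, 269.6, 261 and 262 CPM in Mettl14 KD. The Mettl14 KD libraries were above every other library, with 0.15 ± 0.04 (adjusted p = 0.00591) by edgeR, while Mettl3 KD overlapped scramble at 0.04 ± 0.04. Ctsz, a carboxypeptidase, had 601, 546 and 667 CPM in scramble, 711, 691, 687 and 712 CPM in Mettl3 KD and 616, 618, 607 and 621 CPM in Mettl14 KD. It rose in Mettl3 KD, where all libraries exceeded the others, at 0.21 ± 0.05 (adjusted p = 0.00225) by edgeR. Without scramble replicate 2, the lowest control for Ctsz, this shrank to 0.14 and was still called. In Mettl14 KD the log2 fold change of Ctsz was 0.03 ± 0.05, and its sign turned to -0.04 without scramble replicate 2.

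The remaining proteases moved less clearly. Ctsa, which protects beta-galactosidase and sialidase in a complex, was at 163 ± 9.95 CPM in scramble (SD, n = 3) and 180.0 ± 5.60 CPM in Mettl14 KD (n = 4), and was called higher in Mettl14 KD at 0.15 ± 0.04 (adjusted p = 0.0116) by edgeR. Tpp1, which removes tripeptides, went from 149 ± 9.91 to 168 ± 6.17 CPM and was also called higher, at 0.17 ± 0.05 (adjusted p = 0.0160) by edgeR. In Mettl3 KD they did not pass, at 0.07 ± 0.04 and 0.10 ± 0.05. Ctsf, at 49.5 ± 2.01 CPM in scramble (SD, n = 3), did not pass in either, at 0.12 ± 0.05 and -0.02 ± 0.05. The Ctsa call in Mettl14 KD ended without scramble replicate 1, at 0.10, and the Tpp1 call without scramble replicate 1 or 3, at 0.14 and 0.15. Without scramble replicate 2, Ctsa, Tpp1 and Ctsf were called higher in Mettl3 KD as well, at 0.10, 0.15 and 0.14, which makes 6 of the 7 proteases.

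The glycan-digesting enzymes did not move together. Of 10, Mettl3 KD had 3 higher (30%, against 15.5% of all genes) and 1 lower (10%, against 15.8%). Mettl14 KD had 2 higher (20%, against 10.1%) and 2 lower (20%, against 10.8%). Naglu, the alpha-N-acetylglucosaminidase that acts on heparan sulphate, fell in both and had the largest decrease of any of the 36 genes. Its values were 57.5, 62.6 and 61.7 CPM in scramble, 56.8, 52.7, 51.3 and 51 CPM in Mettl3 KD and 50.5, 48.03, 48.2 and 47.6 CPM in Mettl14 KD. All knockdown libraries lay below all scramble libraries, and the mean was 87.4% of scramble in Mettl3 KD and 80.2% in Mettl14 KD, with log2 fold changes of -0.19 ± 0.04 (adjusted p = 0.00191) and -0.32 ± 0.04 (adjusted p = 2.79e-05) by edgeR. Sgsh, the sulphatase of the same heparan sulphate pathway, did not pass, at 0.10 ± 0.06 and 0.08 ± 0.06. Manba, beta-mannosidase, had 12.2, 11.3 and 12.5 CPM in scramble, 15.1, 14.3, 15.7 and 13.9 CPM in Mettl3 KD and 15.6, 13.96, 14.2 and 13.4 CPM in Mettl14 KD. Both knockdowns lay above scramble, with 0.30 ± 0.07 (adjusted p = 0.00282) and 0.25 ± 0.07 (adjusted p = 0.0164) by edgeR, although the gene is low and its Mettl14 KD call ended without scramble replicate 2 or Mettl14 KD replicate 1, at 0.21 and 0.21. Gusb, beta-glucuronidase, had 54.4, 52.2 and 53.8 CPM in scramble, 60.5, 61.9, 57.9 and 57.7 CPM in Mettl3 KD and 55, 56.8, 55.2 and 54.5 CPM in Mettl14 KD. It rose in Mettl3 KD at 0.15 ± 0.04 (adjusted p = 0.00426) and did not pass in Mettl14 KD, at 0.05 ± 0.04.

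Glb1 encodes beta-galactosidase and had 49.5, 51.8 and 49.8 CPM in scramble, 51.4, 49.1, 52.2 and 51.8 CPM in Mettl3 KD and 47.4, 47.4, 45.5 and 45.2 CPM in Mettl14 KD. The Mettl14 KD libraries were the lowest 4 of the 11, at -0.12 ± 0.04 (adjusted p = 0.0374) by edgeR, and the Mettl3 KD libraries overlapped scramble at 0.02 ± 0.04. This Glb1 call ended without any 1 of scramble replicates 2 and 3 and Mettl14 KD replicates 1, 3 and 4, at -0.12 to -0.10. Fuca1, alpha-fucosidase, had 54.6, 53.9 and 62.5 CPM in scramble, 65.3, 62.2, 60.8 and 64.6 CPM in Mettl3 KD and 63.2, 65.7, 62.5 and 60.8 CPM in Mettl14 KD. Its groups overlapped, and the calls of 0.15 ± 0.05 (adjusted p = 0.0220) and 0.14 ± 0.05 (adjusted p = 0.0369) by edgeR ended without scramble replicate 1 or 2, at 0.12 and 0.11 in Mettl3 KD and 0.11 and 0.11 in Mettl14 KD. They also ended without replicate 1 or 4 of Mettl3 KD, at 0.13 and 0.14, and without Mettl14 KD replicate 1, 2 or 3, at 0.15, 0.12 and 0.15. The abundant acid alpha-glucosidase Gaa, which digests glycogen, was at 1339 ± 43.8 CPM in scramble (SD, n = 3), 1386 ± 36.98 CPM with Mettl3 and 1367 ± 12.7 CPM with Mettl14 knocked down (n = 4 each). It did not pass in either, and its 95% intervals of -0.02 to 0.12 and -0.04 to 0.10 on the log2 scale bound any change; without scramble replicate 2 it was called higher in Mettl3 KD at 0.08. Gla, Hexa and Neu1, which act on globosides, gangliosides and sialic acids, had log2 fold changes between -0.01 and 0.06 in both knockdowns and did not pass; Hexa was called higher in Mettl14 KD without scramble replicate 2, at 0.11.

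Of the 3 lipid and thioester hydrolases, 1 fell in Mettl3 KD and 1 rose in Mettl14 KD. Over all genes, 15.8% were called lower in Mettl3 KD and 10.1% higher in Mettl14 KD. Asah1, acid ceramidase, had 83.1, 85.9 and 88.6 CPM in scramble, 78.3, 74.8, 80.5 and 79.2 CPM in Mettl3 KD and 89.5, 86.9, 91.5 and 84.8 CPM in Mettl14 KD. It fell in Mettl3 KD, where each library was below all others, at -0.14 ± 0.04 (adjusted p = 0.00978) by edgeR, and did not pass in Mettl14 KD, at 0.04 ± 0.04; the Mettl3 KD call ended without scramble replicate 3, at -0.10. Ppt1, palmitoyl-protein thioesterase, had 118, 117 and 123 CPM in scramble, 125, 123, 123 and 128 CPM in Mettl3 KD and 138, 133, 132 and 133 CPM in Mettl14 KD. It rose in Mettl14 KD, above all other libraries, at 0.17 ± 0.03 (adjusted p = 0.00105), and did not pass in Mettl3 KD, at 0.06 ± 0.03. Lipa, the acid lipase that frees cholesterol from its esters, was low, with 6.16, 6.000 and 6.86 CPM in scramble, 4.84, 6.39, 6.87 and 6.64 CPM in Mettl3 KD and 7.47, 6.24, 6.30 and 5.88 CPM in Mettl14 KD. Its 95% intervals of -0.31 to 0.23 and -0.24 to 0.29 leave changes of the size seen elsewhere undetectable.

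Psap, the precursor of the saposins that help enzymes reach their lipids, had 1529.6, 1303 and 1503 CPM in scramble, 1465, 1491, 1467 and 1474 CPM in Mettl3 KD and 1557, 1515, 1545 and 1559 CPM in Mettl14 KD. Scramble replicate 2 was the lowest library and the groups overlapped; the fold changes of 0.03 ± 0.04 and 0.10 ± 0.04 did not pass, and the Mettl14 KD value depended on which control was left out: it was called higher without scramble replicate 1, at 0.14, and was 0.03 and not called without scramble replicate 2. Grn, progranulin, had 315, 302 and 303 CPM in scramble, 329, 306, 322 and 319.5 CPM in Mettl3 KD and 339.7, 322, 337 and 339 CPM in Mettl14 KD. It rose in Mettl14 KD, with every library above scramble, at 0.13 ± 0.03 (adjusted p = 0.0103) by edgeR, and did not pass in Mettl3 KD, at 0.06 ± 0.03. Sqstm1, the p62 receptor that carries ubiquitinated cargo into autophagosomes, had 327, 315 and 332 CPM in scramble, 299, 302, 293 and 306 CPM in Mettl3 KD and 328, 326, 320.4 and 316 CPM in Mettl14 KD. It fell in Mettl3 KD, where all 4 libraries were below all others, at -0.11 ± 0.03 (adjusted p = 0.00776), and was at -0.01 ± 0.03 in Mettl14 KD. Without scramble replicate 3 the Mettl3 KD call on Sqstm1 ended, at -0.09.

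Of the 6 proton pump genes, 1 rose and 1 fell in Mettl3 KD. These shares of 16.7% each were near the 15.5% and 15.8% of all genes. In Mettl14 KD 3 rose (50%, against 10.1% of all genes) and none fell (against 10.8%). The catalytic head of the pump is a ring of alternating A and B subunits, whose transcripts moved in opposite directions in Mettl3 KD. Atp6v1a, the A subunit, had 269, 264 and 261 CPM in scramble, 286, 293, 284 and 278 CPM in Mettl3 KD and 292, 292, 282 and 297 CPM in Mettl14 KD. All knockdown libraries exceeded scramble, with 0.11 ± 0.03 (adjusted p = 0.0113) and 0.14 ± 0.03 (adjusted p = 0.00352) by edgeR. Atp6v1b2, the B subunit outside specialised epithelia, had 403, 383 and 400.5 CPM in scramble, 358, 355, 345 and 349 CPM in Mettl3 KD and 408, 402, 392 and 392 CPM in Mettl14 KD. Its Mettl3 KD libraries were the lowest 4 of 11, at -0.17 ± 0.03 (adjusted p = 0.000274), the smallest adjusted p of the 36 genes in that comparison, and Mettl14 KD overlapped scramble at 0.01 ± 0.03. Atp6ap1, an accessory protein of the membrane sector, had 363, 373 and 369.6 CPM in scramble, 381, 367, 370.2 and 374 CPM in Mettl3 KD and 397, 394, 397 and 403 CPM in Mettl14 KD. It rose in Mettl14 KD, at 0.11 ± 0.03 (adjusted p = 0.00974), with each library above all others, and not in Mettl3 KD, at 0.02 ± 0.03. Atp6v0d1, of the membrane sector, had 181, 172 and 179 CPM in scramble, 189, 181, 189.7 and 191 CPM in Mettl3 KD and 189.9, 187, 194 and 186 CPM in Mettl14 KD. Its Mettl14 KD call stood at the threshold, with 0.09 ± 0.03 (adjusted p = 0.0497) by edgeR, and ended when any of 9 libraries was left out: scramble replicates 2 and 3, Mettl3 KD replicates 1, 3 and 4 and all Mettl14 KD replicates, at 0.07 to 0.11. Atp6v0a1 and Atp6v1h did not pass, at -0.03 ± 0.03 and 0.08 ± 0.04 in Mettl3 KD and -0.01 ± 0.03 and 0.09 ± 0.04 in Mettl14 KD.

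**Figure D3:**
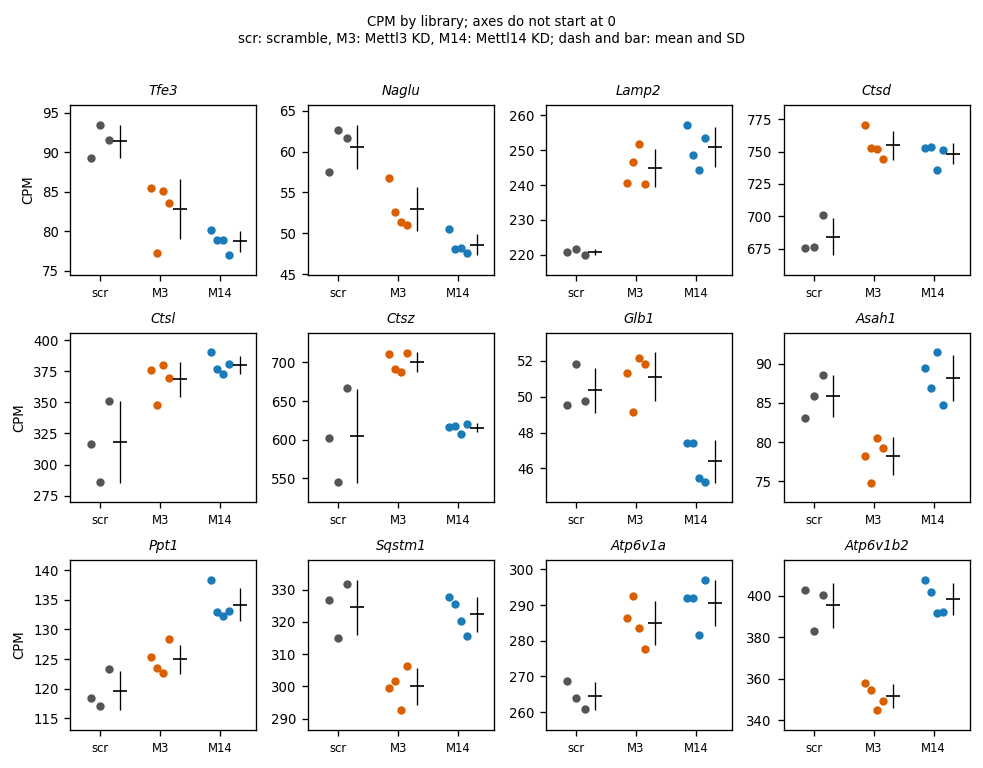
CPM of 12 of the genes in each library, with the mean and SD of each group (3 scramble, 4 Mettl3 KD, 4 Mettl14 KD libraries); vertical axes do not start at 0. Tfe3 and Naglu are lower and Lamp2, Ctsd and Atp6v1a higher in every knockdown library than in scramble, while Ctsz, Asah1, Sqstm1 and Atp6v1b2 set Mettl3 KD apart from the other groups, and Glb1 and Ppt1 set Mettl14 KD apart.

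The knockdowns were then compared directly. Mettl3 KD had 2 members higher than Mettl14 KD and 5 lower, against 8.10% of all genes called, 3.66% higher and 4.44% lower. Of the 34 members with at least 10 CPM, 20.6% were called (5.88% higher, 14.7% lower), against 11% of all genes at that level (5.07% and 5.94%). Ctsz was higher in Mettl3 KD by 0.19 ± 0.04 (adjusted p = 0.0126) and Glb1 by 0.14 ± 0.04 (adjusted p = 0.0197) on the log2 scale, by edgeR. Lower in Mettl3 KD were Atp6v1b2 at -0.18 ± 0.03 (adjusted p = 0.000390), Asah1 at -0.17 ± 0.04 (adjusted p = 0.00356), Sqstm1 at -0.10 ± 0.03 (adjusted p = 0.0280), Ppt1 at -0.10 ± 0.03 (adjusted p = 0.0373) and Atp6ap1 at -0.09 ± 0.03 (adjusted p = 0.0359). For each of these 7 the libraries of the knockdowns did not overlap, as for 8.43% of all genes in the higher and 9.21% in the lower direction. Neither Tfe3, at 0.07 ± 0.04, nor Naglu, at 0.12 ± 0.04 (adjusted p = 0.0735 by edgeR), passed, though both had lower means in Mettl14 KD. Ctsz, Asah1 and Atp6v1b2 kept their calls when any single library was left out. The other 4 did not: Glb1 lost its call without any 1 of Mettl3 KD replicates 1, 3 and 4 and Mettl14 KD replicates 3 and 4 (0.13 to 0.14), and Sqstm1 without any 1 of replicates 1, 2 and 3 of either knockdown (-0.11 to -0.09). Ppt1 lost its call without any 1 of Mettl3 KD replicates 1, 2 and 3 and all Mettl14 KD replicates (-0.11 to -0.09), and Atp6ap1 without any 1 of Mettl3 KD replicates 2, 3 and 4 and all Mettl14 KD replicates (-0.10 to -0.08). Without scramble replicate 2, which enters this comparison through the shared estimate of spread, Ctsf (0.13), Gusb (0.10) and Naglu (0.12) were also called higher and Ctsb (-0.11) and Psap (-0.07) lower in Mettl3 KD.

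**Figure D4:**
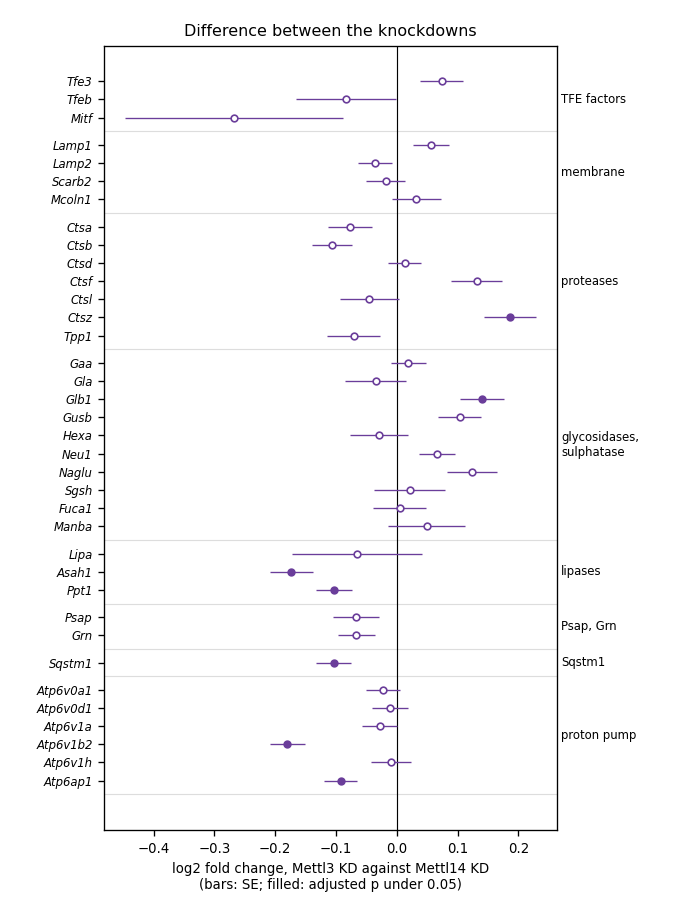
Log2 fold change of each gene between Mettl3 KD and Mettl14 KD, with the SE as bars; filled points passed edgeR's test at an adjusted p of 0.05. Ctsz and Glb1 lie to the right, higher in Mettl3 KD, and Asah1, Ppt1, Sqstm1, Atp6v1b2 and Atp6ap1 to the left.

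Other genes of the pathway were counted from lists written beside these members, with earlier results of these data known. Of 30 other hydrolases and soluble lysosomal proteins that could be tested, 6 rose and 6 fell in Mettl3 KD (median -0.06) and 5 rose and 5 fell in Mettl14 KD (median 0.00). These are 20% higher and 20% lower in Mettl3 KD, against 15.5% and 15.8% of all genes, and 16.7% higher and 16.7% lower in Mettl14 KD, against 10.1% and 10.8%. Tested genes with at least 10 CPM had larger shares, 21.7% higher and 17.7% lower in Mettl3 KD and 14.3% and 12.4% in Mettl14 KD. The lists here were not split by level. Without scramble replicate 2 these hydrolases and soluble proteins had 8 higher and 7 lower in Mettl3 KD and 6 and 4 in Mettl14 KD. Smpd1, acid sphingomyelinase, rose from 130.0 ± 6.29 to 155 ± 4.71 CPM in Mettl3 KD, at 0.25 ± 0.04 (adjusted p = 2.64e-05 by edgeR). The largest decrease in this list, named after its values were seen, was that of the low hyaluronidase Hyal1, from 1.47 ± 0.238 CPM to 0.793 ± 0.146 CPM with Mettl3 and 0.883 ± 0.0806 CPM with Mettl14 knocked down. Of 26 other membrane proteins, 6 rose and 1 fell in Mettl3 KD and 5 rose and none fell in Mettl14 KD. The share higher in Mettl3 KD was 23.1%, against 15.5% of all genes and 21.7% of those with at least 10 CPM. In Mettl14 KD it was 19.2%, against 10.1% and 14.3%. Without scramble replicate 2 the Mettl3 KD counts were 6 and 0, Cd164 being the gene that lost its call as lower, and 8 rose in Mettl14 KD. Tpcn2, a cation channel of endolysosomes, rose from 11.5 ± 0.821 to 17.01 ± 1.35 CPM in Mettl3 KD, at 0.57 ± 0.08 (adjusted p = 8.96e-06 by edgeR), more than any of the 36 members; Mfsd1, a lysosomal transporter, rose in Mettl14 KD at 0.22 ± 0.04 (adjusted p = 0.000634). Of 14 other pump genes, 4 rose in Mettl3 KD and 5 in Mettl14 KD and none fell in either; the shares higher were 28.6% against 15.5% of all genes and 35.7% against 10.1%. The smallest adjusted p in this list was that of Rnasek in Mettl3 KD, at 0.26 ± 0.04 (adjusted p = 5.02e-05 by edgeR), and that of Atp6ap2, the prorenin receptor, in Mettl14 KD, at 0.19 ± 0.03 (adjusted p = 0.000248 by edgeR).

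Genes that sort enzymes to lysosomes were the list with the highest share called in Mettl3 KD: 9 of 12 rose (75.0%, against 15.5% of all genes) and 1 fell, with a median log2 fold change of 0.14. Those that rose were Igf2r, a mannose 6-phosphate receptor, Gnptab, Gnptg and Nagpa, which build the mannose 6-phosphate tag, the adaptors Gga2 and Gga3, and Vps35, Vps26a and Vps29 of the retromer that returns receptors to the Golgi. Vps29 rose at 0.23 ± 0.04 (adjusted p = 7.55e-05 by edgeR) and Nagpa at 0.29 ± 0.06 (adjusted p = 0.000926), while Sort1, sortilin, fell from 228 ± 8.65 to 207 ± 2.95 CPM; Nagpa and Sort1 were named after their values were seen. In Mettl14 KD 4 of 12 rose (33.3%, against 10.1% of all genes) and none fell (median 0.08), with Vps26a at 0.16 ± 0.04 (adjusted p = 0.0116 by edgeR). Without scramble replicate 2 the counts for sorting were 8 higher and 1 lower in Mettl3 KD and 5 higher in Mettl14 KD.

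A list of genes that control the TFE factors included mTORC1, Rag, folliculin and calcineurin genes. Of the 22 tested, 5 were higher and 2 lower in Mettl3 KD, and 4 higher and 1 lower in Mettl14 KD. In either direction 31.8% of the list was called in Mettl3 KD and 22.7% in Mettl14 KD, near the 31.3% and 20.9% of all genes. Rragb, a Rag GTPase that brings mTORC1 to the lysosome, rose in Mettl3 KD at 0.31 ± 0.05 (adjusted p = 3.28e-05 by edgeR), and Fnip1, the partner of folliculin, rose in Mettl14 KD at 0.21 ± 0.04 (adjusted p = 0.00178). The lower genes were the calcineurin subunits Ppp3ca and Ppp3cb in Mettl3 KD and Ppp3ca in Mettl14 KD; calcineurin is the phosphatase that frees TFEB to enter the nucleus. Without scramble replicate 2 this list had 6 higher and 2 lower in Mettl3 KD, and 3 higher and none lower in Mettl14 KD. Of 25 autophagy genes, 4 rose and 5 fell in Mettl3 KD and 3 rose and 3 fell in Mettl14 KD. These shares, 16% higher and 20% lower in Mettl3 KD and 12% higher and 12% lower in Mettl14 KD, were near those of all genes (15.5% and 15.8%, and 10.1% and 10.8%). Without scramble replicate 2 the autophagy genes had 3 higher and 5 lower in Mettl3 KD and 2 and 3 in Mettl14 KD. Ulk1, the kinase that starts autophagy, fell from 113 ± 10.4 CPM in scramble (SD, n = 3) to 76.1 ± 4.64 CPM with Mettl3 and 77.7 ± 4.13 CPM with Mettl14 knocked down (n = 4 each), at -0.57 ± 0.06 (adjusted p = 1.38e-05) and -0.54 ± 0.06 (adjusted p = 4.12e-05) by edgeR.

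**Figure D5:**
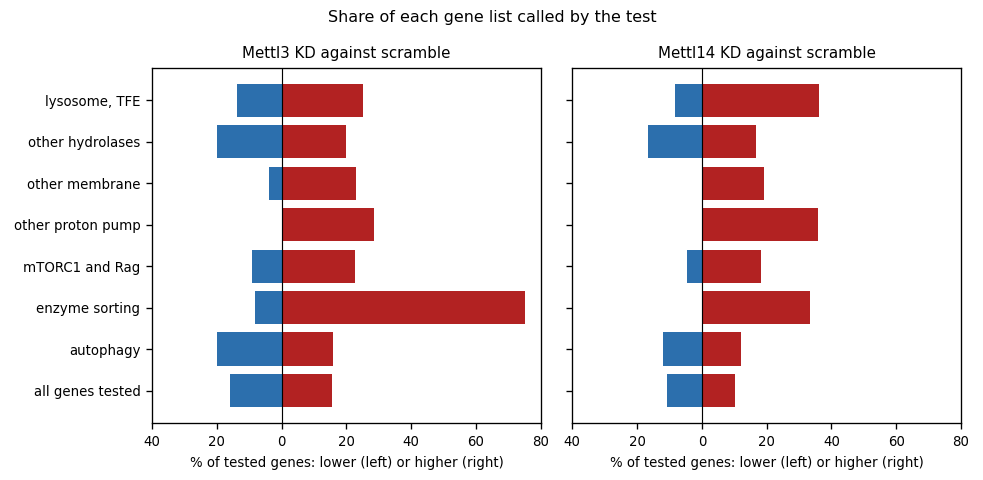
Percent of the tested genes of each list called higher (red, right) or lower (blue, left) than scramble by edgeR's test, for Mettl3 KD and Mettl14 KD; the top row holds the 36 lysosome and TFE genes and the bottom row all 14133 genes tested. In Mettl3 KD the enzyme-sorting list reaches 75.0% higher, and in Mettl14 KD the 36 genes reach 36.1% higher against 10.1% of all genes.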

How the data were processed

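Groups and replicate numbers came from the sample titles. The authors deposited estimated counts (expected counts) per gene, not scaled to a common total, with 1 column per library. Per the submitters' processing notes kallisto was used, with no version; build, annotation and gene summing: not given in the sources used here. Symbols came from GENCODE M21 and promoters from RefSeq. Counts were rounded to whole numbers; 0.518% lay in rows without a symbol. Genes were filtered with filterByExpr (minimum count 10), leaving 14133, scaled by TMM and tested with edgeR 4.0.16 in R 4.3.3: 1 quasi-likelihood fit of all 11 libraries with a mean per group, robust dispersions, Benjamini-Hochberg adjustment over all genes, threshold 0.05. The SE is the absolute log2 fold change over the square root of F, and 95% intervals use 8 residual degrees of freedom; both are approximations. Levels per kb used the median length of GENCODE protein-coding transcripts, which may differ from those used for counting. The fit was also run on simulated counts in which no control library stood apart, unlike these data, and its outcome is not used here. Alternatives were DESeq2 1.42.0, RLE scaling, no filter, limma-voom (limma 3.58.1), 2-group fits, a replicate block and leaving out each library. Replicate libraries differed by more than sampling noise, with chi-square per degree of freedom of 2.10 or more. It was 14.9 and 13.3 for the pairs with scramble replicate 2, 2.93 for the remaining scramble pair and at most 3.87 within either knockdown. The members and lists were chosen with earlier results of these data known. All 3 TFE factors were given in full and, in each other role, up to 4 members with the smallest adjusted p against scramble, and any that separated the knockdowns; from each list, the gene with the smallest adjusted p in each knockdown, of which 1 is not reported here. The comparison with genes of at least 10 CPM was added after the data were seen.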

Additional observations from a re-analysis of the deposited data

Results flagged for a closer look

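For 7 members the test between the knockdowns passed, so that their changes against scramble differed: Ctsz (0.19), Glb1 (0.14), Asah1 (-0.17), Ppt1 (-0.10), Sqstm1 (-0.10), Atp6v1b2 (-0.18) and Atp6ap1 (-0.092), all as log2 fold changes of Mettl3 KD against Mettl14 KD. In 4 of 72 sets of 4 libraries, 1 library lay far from the other 3, where chance gives about 1 in 20. These were Ctsd in Mettl14 KD, with its lowest library at 736 CPM, Grn in Mettl14 KD, with its lowest at 322 CPM, Ppt1 in Mettl14 KD, with its highest at 138 CPM, and Hexa in Mettl3 KD, with its lowest at 109 CPM.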

How the results depend on the processing

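Of the gene counts, only those between the knockdowns moved by over 1.5 times under another setting, besides the range over left-out libraries. With only the 2 groups compared in the fit, Mettl3 KD had 5 members higher and 8 lower than Mettl14 KD, and 2187 genes were called of all tested, against 2, 5 and 1145 in the fit of all groups. Without a filter on low counts 3 members were lower. With the replicate number as a block, a replicate block fit, 2 members were lower and 2 higher. Same-numbered libraries did not deviate together (r from -0.118 to 0.0674, against -0.100 to 0.137 for libraries of unlike number). No pairing was used, although this check cannot exclude that libraries were handled in pairs. Under DESeq2, 2-group fits and the block, Glb1, Fuca1 and Atp6v0d1 were not called in Mettl14 KD, nor Glb1 and Atp6v0d1 without a filter; Ppt1, Sqstm1 and Atp6ap1 were not called between knockdowns without a filter or with the block.

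Leaving out each library in turn gave 8 to 13 members higher and 3 to 5 lower in Mettl3 KD, 10 to 13 and 2 to 3 in Mettl14 KD, and 1 to 5 and 2 to 7 between them, where 713 to 2125 genes were called of all tested. Signs turned only for members that did not pass, with these ranges of log2 fold change: in Mettl3 KD Mitf (-0.25 to 0.21), Gla (-0.0019 to 0.045), Hexa (-0.053 to 0.076), Lipa (-0.093 to 0.062) and Psap (-0.041 to 0.070); in Mettl14 KD Tfeb (-0.11 to 0.016), Ctsf (-0.048 to 0.012), Ctsz (-0.043 to 0.11), Hexa (-0.022 to 0.11), Neu1 (-0.021 to 0.011), Lipa (-0.044 to 0.097), Sqstm1 (-0.031 to 0.014), Atp6v0a1 (-0.027 to 0.010) and Atp6v1b2 (-0.012 to 0.027); and between the knockdowns Hexa (-0.043 to 0.0030), Sgsh (-0.0057 to 0.046), Fuca1 (-0.012 to 0.025), Lipa (-0.12 to 0.035), Atp6v0d1 (-0.020 to 0.0056) and Atp6v1h (-0.028 to 0.0041). The cause was not tested. Depth limits Mitf, Lipa, Tfeb and Manba most, which had the fewest counts.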
